A study of Homo sapiens with 4 samples.

Results

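A small group of genes was near silent in NB4 cells carrying the empty vector and had counts in NB4 cells carrying the JMJD3-expressing vector. The members were chosen from their measured values: a row of the deposited gene table was taken when its estimated count was at most 5 in both vector libraries and at least 20 in both JMJD3 libraries. Genes named as LINC, antisense (AS), HOX or HIST genes, and LCN6, LCN8, LCN10, RP11-216L13.16 and RP1-309F20.3, were left out by name. Of 60662 rows, 11 met the limits, LINC00471 was left out by its name, and 10 were members: AP001626.1, COL5A1, ABCG1, RP11-463D19.2, CAPN11, RP11-11N7.5, ENO1P4, GIMAP8, AC005154.7 and MROH7-TTC4. The annotation lists 6 of them as protein coding, 2 as processed pseudogenes and 1 as a long noncoding RNA, and RP11-11N7.5 has no entry there.

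NB4 is a human acute promyelocytic leukemia (M3/APL) line that carries the PML-RARα fusion. The study asked what JMJD3 does to the transcriptome of leukemia cells, and the groups were NB4 cells transduced with a lentiviral empty vector (2 libraries) or with a lentiviral JMJD3-expressing vector (2 libraries), from which polyadenylated RNA was sequenced. According to the methods, the vectors also express GFP and transduced leukemia cells were sorted for it, so each group is a pool of transduced cells and not a clone. Whether the 2 libraries of each group were transduced separately is not given in the labels, so p-values measure only the spread between libraries, which may be technical.

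JMJD3, encoded by KDM6B, removes the methyl groups of histone H3 lysine 27 trimethylation (H3K27me3). This mark is written by Polycomb repressive complex 2, whose catalytic subunit is EZH2 or EZH1, and it is found over silent developmental and lineage genes, many of which have CpG-rich promoters. In myeloid cells JMJD3 is known as a gene induced by inflammatory signals.

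KDM6B itself had counts of 584 and 524 in vector libraries 1 and 2, and of 1402 and 1635 in JMJD3 libraries 1 and 2. The groups did not overlap, and the log2 fold change was 1.48 (SE 0.13, adjusted p = 0.00114, edgeR quasi-likelihood test, n = 2 a group). Counts per gene do not separate RNA of the vector from RNA of the cell's own gene. Of the other enzymes of this mark, EZH2 was at 4090, 4030, 3510 and 3477 counts in the same order of libraries (log2 fold change -0.19, adjusted p = 0.0928, edgeR quasi-likelihood test). Without vector replicate 1 and 2 the log2 fold change of EZH2 was -0.21 and -0.23. EZH1 had a log2 fold change of 0.38 (SE 0.10, adjusted p = 0.0220, edgeR quasi-likelihood test), with an adjusted p of 0.0693 in a fit blocked on replicate number. Without JMJD3 replicate 1 and 2 the log2 fold change of EZH1 was 0.35 and 0.41. KDM6A, the other demethylase of this mark, was at 1146, 785, 1151 and 1221 counts (log2 fold change 0.32, adjusted p = 0.215, edgeR quasi-likelihood test, and 0.00426 without vector replicate 1). The Polycomb subunit genes EED and SUZ12 had log2 fold changes of -0.20 and 0.42 (adjusted p = 0.146 and 0.0649, edgeR quasi-likelihood test, and 0.0161 and 0.00221 without vector replicate 1). SUZ12 was called in the DESeq2 Wald test (adjusted p = 0.0278), with upper quartile scaling in edgeR (0.0400) and in the fit blocked on replicate number (0.0126).

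The deposited counts were whole reads multiplied by a factor for each library. Among values of up to 20 reads, 95.8%, 95.9%, 96.0% and 96.1% came within 0.01 of a whole number of reads in vector libraries 1 and 2 and JMJD3 libraries 1 and 2, when 1 read was taken as 1.143, 1.047, 0.9928 and 0.8287 counts. The deposited totals were 39078443, 40768225, 35176388 and 34704909 counts, and the reads behind them 34190262, 38947060, 35431638 and 41876210. JMJD3 library 2, the lowest by deposited total, was the most deeply sequenced. The limits therefore stood for different numbers of reads, and with the same limits set on the recovered reads the group had 19 genes, among them all 10 members. By its label vector library 1 was run on lane 20, and lane 17 held vector library 2 and both JMJD3 libraries.

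Because the members were chosen on this contrast, their differences are given as a description with no test. Rows with at most 5 counts in both vector libraries numbered 43557, and the 11 that met the upper limit were 0.0253% of them. In the opposite direction, 13 of 43766 rows (0.0297%) were at most 5 in both JMJD3 libraries and at least 20 in both vector libraries, and 12 remained once the same names were left out. In reads the limits were looser in this direction. The limit of 20 stood for 17.5 and 19.1 reads in vector and 20.1 and 24.1 in JMJD3 libraries. The limit of 5 stood for 4.37 and 4.78 against 5.04 and 6.03 reads. No count of the opposite direction on recovered reads is given, so these numbers do not compare the directions. The mirror rows included ABCA13, a relative of ABCG1, at 45.7 and 46.1 counts in vector and 4.96 and 2.49 in JMJD3 libraries, TGFB2, a secreted growth factor, and ADAMTS5, a matrix protease. All 10 members passed edgeR's expression filter, which they could do through the JMJD3 libraries alone, so their passing says nothing more than the rule does. Over all 15246 genes tested, 1151 (7.55%) were at least 2-fold higher and 430 (2.82%) at least 2-fold lower in JMJD3 cells with an adjusted p under 0.05 (edgeR quasi-likelihood test). At any fold these were 3292 (21.6%) and 2906 (19.1%) genes.

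The members stayed low even where they were counted. Their summed level in CPM, counts scaled to library size, was 0.509 and 0.595 in the vector libraries and 9.15 and 9.51 in the JMJD3 libraries. The mean JMJD3 level of a member ranged from 0.599 to 1.58 CPM with a median of 0.795 CPM, against a median of 18.2 CPM over all tested genes. On the length-corrected scale, which allows genes to be compared, the members' mean FPKM in JMJD3 cells ran from 0.128 (MROH7-TTC4) to 3.18 (RP11-11N7.5), and 4 of 10 reached 0.5. The median over tested genes was 8.92 FPKM. Bulk RNA does not separate a low level in all cells from a higher level in few of them, nor fewer cells of a type from less RNA per cell. The plot of member levels by library shows the gap between the groups and the spread within them.

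ABCG1 is an ATP-binding cassette transporter that moves cholesterol out of cells to high-density lipoprotein and is a known target of liver X receptors. Its counts were 3.43 and 3.14 in vector libraries 1 and 2 and 48.6 and 39.0 in JMJD3 libraries 1 and 2, or 3, 3, 49 and 47 whole reads. The JMJD3 libraries held 13.5 times the vector level (95% exact interval 5.96 to 37.6). This interval, like the others below and the floors against a count of 0, covers counting error only. The members were chosen on these same counts, so the ratios, intervals and floors describe the chosen genes and are no test of a difference. The gene (ENSG00000160179) lies on chromosome 21 of GRCh37 from 43619799 to 43717354 on the plus strand.

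AP001626.1 (ENSG00000225431), a long noncoding RNA gene now named LINC01671, lies on the same chromosome from 44019390 to 44035204 on the minus strand. Its start is 415 kb from that of ABCG1. It was the member with the highest CPM in JMJD3 cells, with counts of 2.29 and 1.05 in vector and 62.5 and 54.7 in JMJD3 libraries, or 2, 1, 63 and 66 whole reads. The ratio was 36.2 (95% exact interval 12.1 to 178), and its FPKM in the JMJD3 libraries was 1.10 and 0.968.

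Since ABCG1 and AP001626.1 share a stretch of chromosome 21, the other genes from 500 kb before to 500 kb after the pair were examined, a choice made after the values were seen. The table held 44 genes there, of which 11 were tested besides the members, and 4 of the 11 passed as higher and 2 as lower at any fold, against 21.6% and 19.1% of all tested genes. ZBTB21, a zinc finger repressor gene, was at 265, 173, 552 and 548 counts in vector libraries 1 and 2 and JMJD3 libraries 1 and 2 (log2 fold change 1.35, SE 0.20, adjusted p = 0.00419, edgeR quasi-likelihood test). Between the starts of both members, SLC37A1, a sugar phosphate exchanger gene, was at 296, 304, 523 and 483 counts (log2 fold change 0.77, SE 0.11, adjusted p = 0.00396, edgeR quasi-likelihood test). Just beyond AP001626.1, PDE9A, which encodes a cyclic GMP phosphodiesterase, was at 1144, 1305, 2149 and 1991 counts (log2 fold change 0.78, SE 0.10, adjusted p = 0.00294, edgeR quasi-likelihood test). In these 3 genes both JMJD3 libraries lay above both vector libraries, and the genes were counted at far higher levels in vector cells than the members.

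The rest of the stretch was mixed. ERVH48-1 had a log2 fold change of 1.37 (SE 0.41, adjusted p = 0.0369, edgeR quasi-likelihood test) on counts of 9.14, 7.33, 16.9 and 24.0, and its adjusted p was 0.203 in the DESeq2 Wald test and 0.0539 to 0.335 with a library left out. The lower genes were U2AF1, a splicing factor (log2 fold change -0.68, SE 0.08, adjusted p = 0.00205, edgeR quasi-likelihood test), and its near-identical copy U2AF1L5. The annotation gives U2AF1L5 the position of U2AF1 and marks it as an artifact, so both lower calls come from the same position. How reads were divided between these copies was not tested. PRDM15, C2CD2, WDR4, NDUFV3 and PKNOX1 did not pass the test. The plot of the chromosome 21 genes by distance shows higher genes on both sides of ABCG1.

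**Figure D1:**
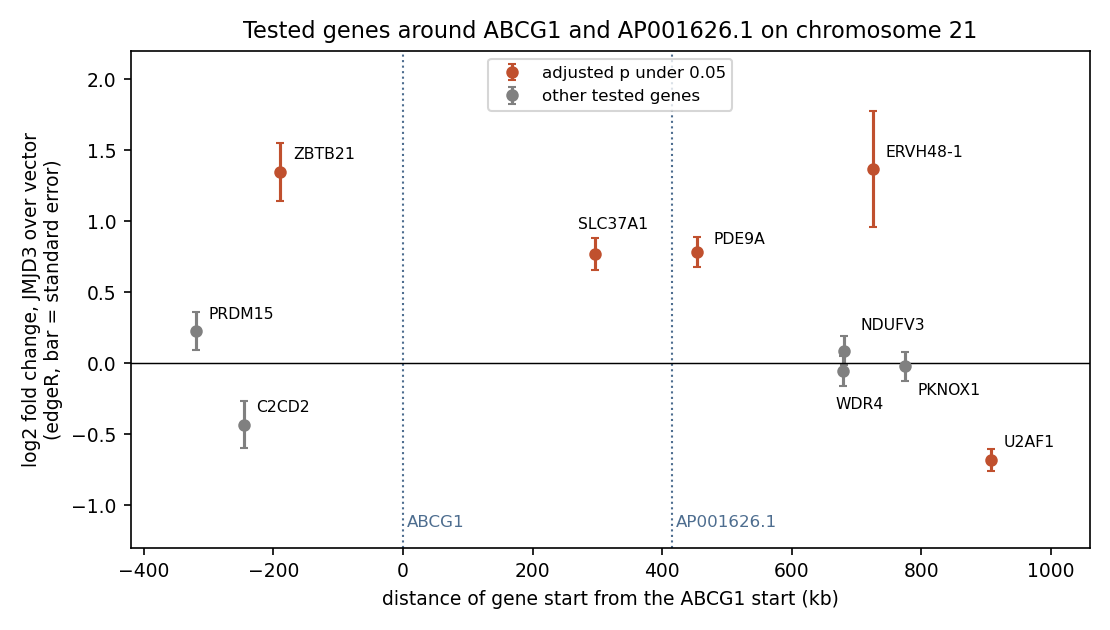
Log2 fold change (JMJD3 over vector, edgeR, bars are standard errors, 2 libraries a group) of the tested genes around ABCG1 and AP001626.1 against the distance of each gene's start from the ABCG1 start in kb. Dotted lines mark the starts of both members, which are not plotted as values, and U2AF1L5 is left out since the annotation gives it the position of U2AF1. ZBTB21 (1.35), SLC37A1 (0.77) and PDE9A (0.78) lie above 0 and U2AF1 (-0.68) below it.

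Genes of cholesterol handling around ABCG1 were looked at after the values were seen. Of 8 sterol-responsive genes other than ABCG1, 6 were lower at any fold by edgeR's quasi-likelihood test, against 19.1% of all tested genes, and MYLIP and PLTP were not called. Without vector replicate 2, MYLIP had a log2 fold change of -0.40, against -0.27 with all libraries. LPCAT3 and APOE had log2 fold changes of -0.39 and -0.97. Without JMJD3 replicate 1 and 2 these were -0.43 and -0.35 for LPCAT3 and -1.03 and -0.92 for APOE. ABCA1, the other main cholesterol exporter, was at 2177 and 1428 counts in vector and 806 and 969 in JMJD3 libraries (log2 fold change -1.0, SE 0.22, adjusted p = 0.0125, edgeR quasi-likelihood test). The adjusted p of ABCA1 was 0.0707 with no filter on low counts (edgeR quasi-likelihood test), and that of APOE was 0.0884 in the DESeq2 Wald test. SREBF1, a regulator of lipid synthesis, was at 10280 and 11442 counts in vector and 3775 and 3970 in JMJD3 libraries (log2 fold change -1.46, SE 0.08, adjusted p = 0.000375, edgeR quasi-likelihood test). SCD, which makes monounsaturated fatty acids, had a log2 fold change of -1.54 (SE 0.09, adjusted p = 0.000432, edgeR quasi-likelihood test). The liver X receptor genes NR1H2 and NR1H3 had log2 fold changes of 0.26 and 0.18 (adjusted p = 0.117 and 0.253, edgeR quasi-likelihood test), and for NR1H2 it was 0.00836 without vector replicate 2.

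Among ABC transporter genes other than ABCG1, 25 of 45 were tested, 6 (24%) were higher and 6 (24%) lower at any fold, against 21.6% and 19.1% of all tested genes. At 2-fold 4 (16%) were higher and 2 (8%) lower, against 7.55% and 2.82%, and the median log2 fold change was 0.05 against 0.04. The counts at any fold were 7 and 8 without vector replicate 1, 6 and 9 without vector replicate 2, 6 and 3 without JMJD3 replicate 1, and 5 and 3 without JMJD3 replicate 2. Picked by size after the values were seen, ABCB6, a porphyrin transporter gene, was at 5.08, 5.86, 40.1 and 29.9 counts (log2 fold change 2.66, SE 0.39, adjusted p = 0.00371, edgeR quasi-likelihood test), just above the vector limit that the members met. The vector counts of ABCB6 were not whole reads, and whether it shared reads with other genes was not tested. ABCA7, a lipid transporter gene, was at 337, 303, 1272 and 1418 counts (log2 fold change 2.09, SE 0.12, adjusted p = 0.000402, edgeR quasi-likelihood test). ABCG4, the closest relative of ABCG1, was at 1.14, 1.05, 1.99 and 0.829 counts and was too low to test.

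COL5A1 encodes the alpha 1 chain of type V collagen, a fibrillar collagen that sets the diameter of type I collagen fibrils. It was at 1.14 and 2.09 counts in vector and 51.6 and 58.0 counts in JMJD3 libraries, or 1, 2, 52 and 70 whole reads, a ratio of 34.2 (95% exact interval 11.4 to 168). The gene (ENSG00000130635) lies on chromosome 9 of GRCh37 from 137533649 to 137736689 on the plus strand. Its FPKM was 0.168 in JMJD3 library 1 and 0.390 in JMJD3 library 2, so that 1 count gave 2.06 times the FPKM in library 2, against 1.0 times for AP001626.1 and ABCG1. For COL5A1, counts and FPKM therefore give different spreads.

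The COL5A1 promoter is shown because, of 4 member promoters, it alone was richer in CpG than the median promoter. It is given from 250 bases before to 50 bases after the gene's start in RefSeq (GRCh38.p14, chr9:134641553-134641852, plus strand, first of 2 entries), with each CpG in capitals.
COL5A1: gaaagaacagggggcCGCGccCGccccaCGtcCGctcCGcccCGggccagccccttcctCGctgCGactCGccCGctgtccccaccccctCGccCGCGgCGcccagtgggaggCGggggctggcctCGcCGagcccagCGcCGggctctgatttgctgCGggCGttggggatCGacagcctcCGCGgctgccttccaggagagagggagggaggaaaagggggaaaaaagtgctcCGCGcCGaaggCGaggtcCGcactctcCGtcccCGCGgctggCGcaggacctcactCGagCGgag
It held 36 CpG in 300 bases at 74.0% GC. The observed over expected CpG ratio was 0.877, above that of 77.3% of 27305 promoters, whose median was 0.580.

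Other collagen genes were counted as relatives of COL5A1. Of 43 collagen genes other than COL5A1, 13 were tested, and 2 (15.4%) were higher and 1 (7.69%) lower at any fold, against 21.6% and 19.1% of all tested genes. These were 4 and 2 without vector replicate 1, where COL4A1 and COL6A6 were also called higher and COL9A2 lower, and 1 and 1 without either JMJD3 library, where COL18A1 was not called. COL7A1, the anchoring fibril collagen, was at 307 and 313 counts in vector and 624 and 670 in JMJD3 libraries (log2 fold change 1.08, SE 0.11, adjusted p = 0.00160, edgeR quasi-likelihood test). On FPKM the log2 difference of COL7A1 was -0.0033 (adjusted p = 0.989, limma on log2(FPKM + 1)). COL18A1 had a log2 fold change of 0.47 (SE 0.11, adjusted p = 0.0165, edgeR quasi-likelihood test), with an adjusted p of 0.166 by limma on log2(FPKM + 1). Without JMJD3 replicate 1 and 2 the log2 fold change of COL18A1 was 0.46 and 0.49. COL27A1 was at 214, 238, 71.5 and 92.0 counts (log2 fold change -1.45, SE 0.18, adjusted p = 0.00236, edgeR quasi-likelihood test), with an adjusted p of 0.226 by limma on log2(FPKM + 1). COL5A2, whose product joins that of COL5A1 in type V collagen, was at 8.0, 5.23, 9.93 and 14.1 counts (adjusted p = 0.181, edgeR quasi-likelihood test). COL5A3, COL11A1, COL1A2 and COL3A1 were at 0 in each of the 4 libraries, where as many as 3 counts cannot be told from 0.

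Of 8 genes whose products modify or fold collagen, looked at after the values were seen, 5 were tested and 4 were higher at any fold, against 21.6% of all tested genes, while PLOD2 was at 0 in all 4 libraries and LOX and ADAMTS2 were too low to test. P4HA1, a prolyl hydroxylase subunit, was at 1482, 1341, 2474 and 2490 counts (log2 fold change 0.84, SE 0.10, adjusted p = 0.00239, edgeR quasi-likelihood test). PLOD1 and SERPINH1 had log2 fold changes of 0.48 and 0.42 (adjusted p = 0.00668 and 0.0156, edgeR quasi-likelihood test). Without JMJD3 replicate 1 and 2 the log2 fold change was 0.47 and 0.48 for PLOD1 and 0.38 and 0.45 for SERPINH1. P4HA2 was at 5.71, 9.42, 28.8 and 15.7 counts (adjusted p = 0.0356, edgeR quasi-likelihood test), with an adjusted p of 0.0618, 0.110 and 0.335 without vector replicate 2, vector replicate 1 and JMJD3 replicate 1, and of 0.130 in the DESeq2 Wald test. BMP1, which trims procollagen, had a log2 fold change of 0.12 (adjusted p = 0.386, edgeR quasi-likelihood test).

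CAPN11 encodes a calpain, a calcium-dependent cysteine protease, known mainly from testis. Its counts were 1.14 and 2.09 in vector and 32.8 and 31.5 in JMJD3 libraries, or 1, 2, 33 and 38 whole reads, a ratio of 19.9 (95% exact interval 6.54 to 98.8). The gene (ENSG00000137225) lies on chromosome 6 of GRCh37 from 44126548 to 44152138 on the plus strand. Its promoter (GRCh38.p14, chr6:44158570-44158869, plus strand, RefSeq) is shown against that of COL5A1 for its few CpG, again in capitals.
CAPN11: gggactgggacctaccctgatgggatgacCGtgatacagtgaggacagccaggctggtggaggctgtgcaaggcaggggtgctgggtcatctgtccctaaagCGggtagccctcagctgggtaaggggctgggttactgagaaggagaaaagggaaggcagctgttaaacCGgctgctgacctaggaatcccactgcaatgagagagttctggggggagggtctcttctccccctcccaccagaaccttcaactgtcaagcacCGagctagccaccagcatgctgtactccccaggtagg
It held 4 CpG at 59.0% GC, a ratio of 0.156 that was above that of 16.8% of promoters.

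Of the other calpain genes, 7 of 13 were tested, 2 (28.6%) were higher and 1 (14.3%) was lower at any fold, against 21.6% and 19.1% of all tested genes. Without vector replicate 1, CAPN1 and CAPN10 had log2 fold changes of -0.24 and -0.23, against -0.10 and -0.11 with all libraries. CAPN15 was at 5331, 6052, 3451 and 3511 counts (log2 fold change -0.69, SE 0.09, adjusted p = 0.00249, edgeR quasi-likelihood test). CAPN2 had a log2 fold change of 0.54 and CAPN7 of 0.41 (adjusted p = 0.00838 and 0.0386, edgeR quasi-likelihood test). Without JMJD3 replicate 1 and 2 these were 0.54 and 0.54 for CAPN2 and 0.44 and 0.39 for CAPN7. Both calls were lost by limma on log2(FPKM + 1), at adjusted p of 0.0581 and 0.0582. That of CAPN7 was also lost with no filter on low counts, at an adjusted p of 0.114 in edgeR's quasi-likelihood test. CAPNS1, the shared small subunit of the classical calpains, was at 4486, 5171, 4005 and 3984 counts (adjusted p = 0.0609, edgeR quasi-likelihood test, and 0.00533 without vector replicate 1). The calpain inhibitor gene CAST was at 129, 120, 86.4 and 99.4 counts (adjusted p = 0.0971, edgeR quasi-likelihood test).

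GIMAP8 is a GTPase of the immunity-associated family, whose genes form a cluster on chromosome 7 and are known from lymphocytes. It was at 2.29 and 2.09 counts in vector and 23.8 and 24.9 in JMJD3 libraries, or 2, 2, 24 and 30 whole reads, a ratio of 11.4 (95% exact interval 4.19 to 43.2). The gene (ENSG00000171115) lies on chromosome 7 of GRCh37 from 150147718 to 150176481 on the plus strand. Of 6 other GIMAP genes, GIMAP4 and GIMAP7 were at 0 in all 4 libraries, and only GIMAP6 and GIMAP1 were tested. GIMAP6 was at 83.4, 76.4, 58.6 and 57.2 counts and GIMAP1 at 50.9, 38.7, 45.7 and 50.6 counts. Of these 2 genes, 0 were called by edgeR's quasi-likelihood test, the DESeq2 Wald test or limma, and 0 had an unadjusted p under 0.05 in edgeR or DESeq2 and 1 in limma on log2(FPKM + 1).

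The GIMAP8 promoter (GRCh38.p14, chr7:150450380-150450679, plus strand, RefSeq) is shown as the only member promoter with a match to TTGCNNAA, the letters of a C/EBP site, with CpG in capitals.
GIMAP8: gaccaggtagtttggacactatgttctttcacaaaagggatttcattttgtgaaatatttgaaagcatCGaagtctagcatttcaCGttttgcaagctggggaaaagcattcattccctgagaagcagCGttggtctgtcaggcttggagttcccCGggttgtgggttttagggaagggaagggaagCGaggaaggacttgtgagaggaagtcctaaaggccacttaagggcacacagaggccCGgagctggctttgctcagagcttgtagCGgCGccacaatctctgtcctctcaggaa
It held 8 CpG at 49.7% GC, a ratio of 0.452. The match covers bases 88 to 95 on the minus strand, and 10.6% of 27305 promoters hold these letters on either strand. The AP-1 letters TGANTCA, which 7.76% of promoters hold, were in none of the 4. The TATA box letters TATAAA, held by 12% of promoters, were in none of them either. A match is a description of letters and not a bound site. Since 4 of 10 members (40%) had a promoter entry, fewer than 80%, no comparison of the members' promoters as a set was made.

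The recovered reads of the other 5 members were not whole in all 4 libraries. The exon bases of ENO1P4, RP11-463D19.2, MROH7-TTC4 and AC005154.7 lie wholly or partly in exons of other genes, as given below. How reads were divided between the genes was not tested, and no position was at hand for RP11-11N7.5. The ratios of these 5 members use recovered reads rounded to whole numbers in each library. Their intervals, and the floor of ENO1P4, treat these estimates as counts and do not cover error in dividing reads between genes. MROH7-TTC4 is a readthrough gene (ENSG00000271723) on chromosome 1 of GRCh37 from 55107459 to 55207981 on the plus strand, with 71.6% of its exon bases in MROH7 and 26.1% in TTC4. It was at 4.27, 3.85, 22.9 and 21.5 counts, a ratio of 5.15 (95% exact interval 2.42 to 12.6) that was the lowest of the members. MROH7 was at 1.14, 0, 12.2 and 3.62 counts, and TTC4, a cochaperone gene, at 1438, 1649, 1615 and 1498. The member took 0.296% and 0.233% of the summed counts of these genes in vector and 1.39% and 1.41% in JMJD3 libraries, while the summed CPM was 1.04 times as high.

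The MROH7-TTC4 promoter (GRCh38.p14, chr1:54641490-54641789, plus strand, RefSeq) is shown as the poorest in CpG of the 4, with CpG in capitals.
MROH7-TTC4: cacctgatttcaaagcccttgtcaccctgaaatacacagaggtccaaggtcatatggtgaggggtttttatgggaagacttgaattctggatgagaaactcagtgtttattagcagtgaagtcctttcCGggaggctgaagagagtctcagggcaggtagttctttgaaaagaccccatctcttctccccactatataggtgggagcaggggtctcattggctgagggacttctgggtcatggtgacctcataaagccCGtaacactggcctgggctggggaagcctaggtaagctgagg
It held 2 CpG at 50.3% GC, a ratio of 0.108 that was above that of 11.0% of promoters. Among 6013 promoters of near-silent genes that were not members the median ratio was 0.364.

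RP11-463D19.2 (ENSG00000258677), a readthrough gene on chromosome 8, has 38.9% of its exon bases in STAU2, which encodes an RNA-binding protein, and 61.1% in UBE2W, which encodes a ubiquitin-conjugating enzyme. It was the most variable member, at 0.493 and 4.82 counts in vector and 21.1 and 45.9 in JMJD3 libraries, where the SD was 52.4% of the mean. The ratio was 12.8 (95% exact interval 5.24 to 40.5). STAU2 was at 1633, 1333, 1757 and 1840 counts (log2 fold change 0.30, adjusted p = 0.108, edgeR quasi-likelihood test), and UBE2W at 464, 368, 555 and 458 (adjusted p = 0.179, edgeR quasi-likelihood test). Without vector replicate 1 these were 0.00725 and 0.0455, and for STAU2 it was 0.0375 by limma on log2(FPKM + 1). The member took 0.0235% and 0.282% of the summed counts in vector and 0.903% and 1.96% in JMJD3 libraries.

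ENO1P4 is a processed pseudogene of ENO1, the glycolytic enolase gene, and lies on chromosome 2 of GRCh37 from 202486369 to 202488153 on the minus strand (ENSG00000241790), wholly within an exon of TMEM237. It was estimated at 0 counts, after rounding, in both vector libraries and at 30.9 and 20.6 in JMJD3 libraries, at least 15.7-fold higher against 3 counts over both vector libraries. ENO1 was at 109411, 126989, 101664 and 96347 counts (log2 fold change -0.23, adjusted p = 0.0586, edgeR quasi-likelihood test, and 0.0101 without vector replicate 1) and TMEM237 at 1039, 977, 1075 and 1031. The pseudogene took 0.0300% and 0.0211% of the summed counts in JMJD3 libraries, and how reads were divided between these genes was not tested.

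AC005154.7 (ENSG00000244480), a transcribed processed pseudogene on chromosome 7 of GRCh37 from 30562759 to 30564151 on the minus strand, shares 36.8% of its exon bases with the noncoding gene AC005154.6. It was at 1.39, 2.51, 24.2 and 23.4 counts, with a mean of 0.0516 CPM in vector and 0.642 CPM in JMJD3 libraries. From rounded reads, 3 in vector and 52 in JMJD3 libraries, the ratio was 14.6 (95% exact interval 4.72 to 73.0). AC005154.6 was itself higher, at 364, 425, 583 and 572 counts (log2 fold change 0.57, SE 0.12, adjusted p = 0.010, edgeR quasi-likelihood test), with a log2 fold change of 0.56 and 0.59 without JMJD3 replicate 1 and 2. The member took 0.380% and 0.587% of the summed counts in vector and 3.98% and 3.92% in JMJD3 libraries, and the summed CPM was 1.54 times as high. RP11-11N7.5 (ENSG00000277877), for which no position was at hand, was at 2.41, 1.07, 20.6 and 32.9 counts, a ratio of 17.1 (95% exact interval 5.58 to 85.2), and had the highest FPKM of the members at 2.39 and 3.97 in JMJD3 libraries. The plot of counts taken by the overlapping members shows these shares by library.

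**Figure D2:**
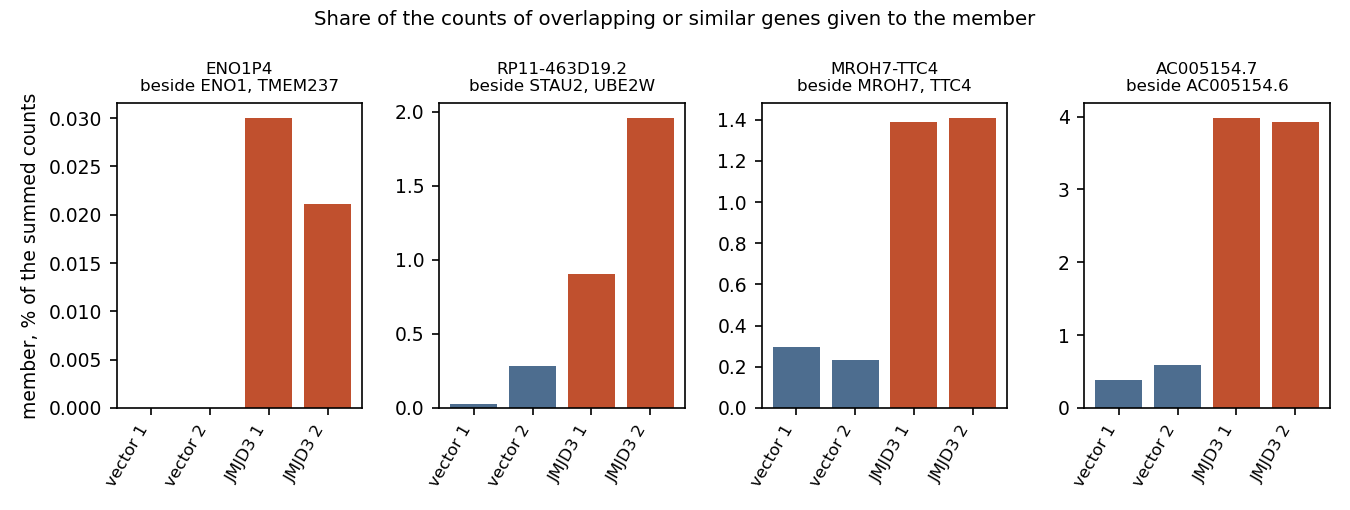
Counts given to ENO1P4, RP11-463D19.2, MROH7-TTC4 and AC005154.7 as a percentage of the summed counts of the member and the overlapping or similar genes named above each panel, 1 bar a library, each panel on its own axis from 0. The highest share is 3.98% for AC005154.7 and 0.0300% for ENO1P4, and the kit does not mark strand, so antisense reads are included.

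The 3 members nearest the upper limit were ENO1P4 and RP11-11N7.5, each with a lower JMJD3 count of 20.6, and RP11-463D19.2 with 21.1. Just outside the limits lay KRT79, a keratin gene, at 4.57, 4.19, 26.8 and 19.9 counts, CELF6, an RNA-binding protein gene, at 5.23, 2.60, 34.8 and 30.8, and the pseudogene SDAD1P1 at 1.14, 5.23, 23.8 and 22.4. Each missed by less than 1 read. The plot of rows around the limits shows no empty zone between members and other rows at the lower right of the member area, whereas AP001626.1 and COL5A1 stand well inside it.

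Lane did not separate the groups by itself, since vector library 2 shared lane 17 with both JMJD3 libraries. The limits of the rule applied to vector library 2 as well, so the members' values in that lane were set by the choice. With lane 17 alone, which leaves out vector replicate 1, KDM6B had a log2 fold change of 1.53 (adjusted p = 0.00178, edgeR quasi-likelihood test), where the lone vector library was assumed to vary like the JMJD3 libraries.

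For each of the 9 placed members, the gene with the nearest start on each side that did not overlap a member was taken as a flanking gene. Of 18 such genes, 3 were tested, and 0 were called higher or lower at 2-fold by edgeR's quasi-likelihood test, the DESeq2 Wald test or limma, with 0 at an unadjusted p under 0.05 and 2-fold. At any fold edgeR called 2 of the 3, and also GGCT, taken for AC005154.7, without vector replicate 1 (adjusted p = 0.0142, edgeR quasi-likelihood test). PARS2, a mitochondrial prolyl-tRNA synthetase gene taken for MROH7-TTC4, was at 334, 343, 600 and 588 counts (log2 fold change 0.83, SE 0.11, adjusted p = 0.00258, edgeR quasi-likelihood test). MRPL14, a mitochondrial ribosome gene taken for CAPN11, was at 1959, 2398, 1190 and 1067 counts (log2 fold change -0.92, SE 0.12, adjusted p = 0.00286, edgeR quasi-likelihood test). TMEM63B lies between MRPL14 and CAPN11, with its start 31.9 kb from that of CAPN11 against 31.4 kb for MRPL14, and it did not pass the test (log2 fold change 0.22, adjusted p = 0.136, edgeR quasi-likelihood test), so the call for CAPN11 depended on measuring between starts. The other 15 genes were too low to test. With the nearest tested gene on each side by start taken instead, a choice made after the data were seen, 9 of 17 genes were higher and 3 lower at any fold (median log2 fold change 0.35), against 21.6% and 19.1% of all tested genes. With every tested gene within 500 kb, 15 of 59 were higher and 16 lower, with U2AF1 and U2AF1L5 counted separately and a median of 0.06. Without JMJD3 replicate 1 the nearest tested genes gave 6 higher and 2 lower and those within 500 kb 8 and 8, and without JMJD3 replicate 2 these were 5 and 2, and 5 and 8. Without vector replicate 1 the nearest tested genes gave 8 and 5. With no filter on low counts the higher genes were 5 and 6.

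Members belonged to 3 gene families on the symbol lists, which together held 1584 genes, 609 of them tested. Of these, 66 (10.8%) were higher and 22 (3.61%) lower at 2-fold, against 7.55% and 2.82% of all tested genes, with a median log2 fold change of 0.10 against 0.04. Solute carriers and ABC transporters, the family of ABCG1, had 28 (8.89%) higher and 9 (2.86%) lower of 315 tested, adhesion and matrix genes, the family of COL5A1, had 23 (14.4%) and 7 (4.38%) of 160, with a median of 0.28, and proteases and inhibitors, the family of CAPN11, had 15 (11.2%) and 6 (4.48%) of 134. ITGAD, an integrin alpha chain, was at 3.43, 6.28, 30.8 and 37.3 counts (log2 fold change 2.91, SE 0.42, adjusted p = 0.00364, edgeR quasi-likelihood test), which is close to the members' pattern. L1CAM, a neural adhesion molecule, was at 2.29, 1.05, 9.93 and 9.95 counts (log2 fold change 2.66, SE 0.65, adjusted p = 0.0185, edgeR quasi-likelihood test), with an adjusted p of 0.124 in the DESeq2 Wald test and 0.0563 without vector replicate 2. On FPKM the groups overlapped for L1CAM, at 0.104, 0.0656, 0.175 and 0.0680 (log2 difference 0.05, adjusted p = 0.673, limma on log2(FPKM + 1)). In the other direction, CTSG, the neutrophil serine protease cathepsin G, was at 5358, 6250, 406 and 356 counts (log2 fold change -3.91, SE 0.12, adjusted p = 9.25e-05, edgeR quasi-likelihood test). ADAMTS15 had a log2 fold change of -3.09 (SE 0.30, adjusted p = 0.00145, edgeR quasi-likelihood test), ABCA13 of -3.65 (adjusted p = 0.00210) and the lipid flippase gene ATP8B1 of -3.07 (adjusted p = 0.0237). For ATP8B1 it was 0.0965 with no filter on low counts, 0.0749 without vector replicate 2 and 0.0777 without JMJD3 replicate 1.

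Markers of the promyelocyte and of other cell types were counted beside the members. Of 6 promyelocyte markers 5 were tested, with MPO the most abundant, and their summed level was 16577 and 17373 CPM in vector and 10474 and 10436 CPM in JMJD3 libraries. CTSG and PRTN3 were lower at 2-fold, MPO and AZU1 were lower at a smaller fold (log2 fold change -0.57 and -0.56, adjusted p = 0.00168 and 0.0119, edgeR quasi-likelihood test, and 0.0574 for AZU1 with no filter on low counts), and ELANE was below 1 CPM in all 4 libraries. CD33 went the other way, at 2414, 2623, 3094 and 2953 counts (log2 fold change 0.29, SE 0.09, adjusted p = 0.0380, edgeR quasi-likelihood test), with an adjusted p of 0.138 in a fit blocked on replicate number and 0.0956 in the DESeq2 Wald test. Without JMJD3 replicate 1 and 2 the log2 fold change of CD33 was 0.25 and 0.32. Fibroblast markers, which include the collagen genes COL1A1, COL1A2 and COL3A1, summed to 0.0925, 0.192, 0.0804 and 0.0895 CPM, with COL1A2, COL3A1 and LUM at 0 in all libraries. Markers of T cells, in which GIMAP genes are known to be expressed, summed to 3.76 and 5.29 CPM in vector and 11.1 and 11.1 CPM in JMJD3 libraries. That sum was nearly all CD2 (log2 fold change 1.38, SE 0.17, adjusted p = 0.00250, edgeR quasi-likelihood test), with CD5 at 0 and CD3D, CD3E and CD3G below 1 CPM.

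Of the 12 lists, that of mast cell or basophil markers differed most as a fold, from 33.2 and 32.6 CPM to 338 and 328 CPM over 5 markers, while in CPM the promyelocyte list differed most. Of these 5 mast cell or basophil markers 3 were tested, and all 3 were higher at 2-fold. HDC, the histamine-forming enzyme, was the most abundant, at 1100, 1113, 12155 and 11825 counts (log2 fold change 3.46, SE 0.08, adjusted p = 3.23e-05, edgeR quasi-likelihood test), while FCER1A was at 0 and CPA3 at 9.14, 9.42, 0 and 0 counts. Monocyte or macrophage markers went in sum from 7.25 and 5.70 to 15.4 and 15.4 CPM through CSF1R, and endothelial markers from 18.4 and 18.0 to 37.1 and 37.1 CPM through PECAM1, with CDH5, KDR and TEK at 0. B cell markers summed to 10.6, 11.6, 18.0 and 16.4 CPM with MS4A1 at 0. The most abundant of them was CD79A (log2 fold change 0.83, SE 0.13, adjusted p = 0.00416, edgeR quasi-likelihood test), while CD22, at 8.0, 0, 17.9 and 16.6 counts, had an adjusted p of 0.0805 in edgeR's quasi-likelihood test, 0.00586 without vector replicate 1 and 0.00215 in a fit blocked on replicate number. Megakaryocyte markers summed to 2.53, 1.92, 3.4 and 3.51 CPM with PF4 and GP9 at 0. Of the megakaryocyte markers ITGA2B was higher at 2-fold, at 21.7, 25.1, 64.5 and 59.7 counts (log2 fold change 1.43, SE 0.24, adjusted p = 0.00542, edgeR quasi-likelihood test), with an adjusted p of 0.0858 by limma on log2(FPKM + 1), and GP1BA, the most abundant, was not called. Erythroid markers were at 0 in all libraries, and neuronal markers summed to 0.192 CPM or less. Epithelial markers summed to 6.63 and 7.49 CPM in vector and 3.43 and 2.82 CPM in JMJD3 libraries. Of these EPCAM was lower at 2-fold (log2 fold change -2.05, SE 0.18, adjusted p = 0.00115, edgeR quasi-likelihood test). KRT8 was not called (adjusted p = 0.601, edgeR quasi-likelihood test). Markers of HEK-293T, the line in which the virus was packaged, summed to 34, 22, 17 and 19 CPM, nearly all LIN28B, with CRABP1 and SALL1 at 0. LIN28B was lower (log2 fold change -0.63, SE 0.20, adjusted p = 0.0450, edgeR quasi-likelihood test). Its adjusted p was 0.163 with no filter on low counts (edgeR quasi-likelihood test) and 0.106 by limma on log2(FPKM + 1). The part of these markers in the members' counts was not tested.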

How the data were processed

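RNA-seq of NB4 cells, 2 vector and 2 JMJD3 libraries grouped by their labels, was used as 1 deposited table. Its values per gene and library are the authors' estimated counts and FPKM. The columns of their own comparison (log2 fold change, p-value, FDR) were not used. Per the labels, CASAVA 1.8, TopHat2 2.0.4, RSEM and edgeR with GRCh38 are named, the series text names BWA with ANOVA and TopHat with Cufflinks, and the methods name STAR, hg19, HTSeq-count and DESeq2; which of them made the table is not stated. The TruSeq kit named does not mark strand, so reads of a gene and its antisense partner cannot be told apart. No per-sample column was left unused (0).

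Counts were rounded, kept by filterByExpr (minimum count 10), scaled by TMM and tested with edgeR 4.0.16 (glmQLFit, glmQLFTest, R 4.3.3), with Benjamini-Hochberg adjustment over 15246 genes and no covariate. The SE is the log2 fold change divided by the square root of F. Member ratios use recovered reads, rounded in each library and summed over the group, with exact 95% intervals scaled to library size. A floor is 3 counts. Gene positions are those of GENCODE release 44 on GRCh37, matched by identifier for 93.9% of rows, and promoters those of RefSeq on GRCh38.p14, matched by symbol for 4 of 10 members. The tests were checked on simulated counts. Other tools were DESeq2 1.42.0 and limma 3.58.1.

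The members and lists were chosen with earlier results of these data known. Named genes were all members, KDM6B, the 3 rows nearest outside the limits, flanking genes called, and up to 2 genes of each family by largest change at an adjusted p under 0.05. Others were chosen after their values were seen. A gene looked at is not reported here. The symbol patterns also placed ENO1P4 and CAPN11 in families by their letters alone (transcription factors, metabolic enzymes), and these families were left out after their counts were seen. Marker lists were those of promyelocytes, T cells, B cells, erythroid cells, megakaryocytes, monocytes or macrophages, mast cells or basophils, epithelial cells, fibroblasts, endothelial cells, neurons and HEK-293T cells.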

Additional observations from a re-analysis of the deposited data

How the results depend on the processing

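The number of member genes depended on the limits. It was 1 with at most 2 vector counts, 69 with at most 10, 63 with at least 10 JMJD3 counts, 2 with at least 50, and 128 with FPKM limits of 0.05 and 0.2, of which 2 were members. It was 18 to 35 with a library left out of the rule and 19 with the limits on recovered reads, the latter chosen after seeing the data. Scaling to TMM library sizes gave 11 genes and rounding 15.

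The log2 fold change of KDM6B was 1.36 to 1.58 with each library left out and passed the threshold under every alternative. Here the lone library of a group was assumed to vary like the other group. Genes called higher and lower numbered 293 and 168 by limma on log2(FPKM + 1), 3292 and 2906 with no limit on the fold, and 948 to 1323 and 367 to 599 with a library left out. Of the 3-family genes, 18 were called higher and 2 lower by limma on log2(FPKM + 1), 11 lower by limma on log2(FPKM + 0.1), 158 and 101 with no limit on the fold, and 119 and 47 with the families matched by letters only. With a library left out these were 50 to 74 and 16 to 24.

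Flanking genes called higher went from 0 to 1 with no limit on the fold, to 1 with the nearest tested gene on each side and to 3 with all tested genes within 500 kb, and those called lower to 1, 0 and 2. With a library left out, 0 were higher and 0 to 1 lower, the 1 without vector replicate 1 or without JMJD3 replicate 1. The definitions by tested genes were added after seeing the data. The causes of these shifts were not tested. Promoter alternatives were not run, since too few members had a promoter.

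With the replicate number as a block, KDM6B had a log2 fold change of 1.47, 1243 genes were higher and 476 lower, 0 flanking genes were called in either direction, and 70 and 23 family genes were called. The numbers carry no stated pairing, and the deviations of replicate 1 had a correlation of -0.146 between the groups. With crossed numbers as a block, an alternative added after seeing the data, 1233 genes were higher and 469 lower. The libraries of a group differed beyond sampling noise (chi-square per degree of freedom 24.1 for vector and 5.57 for JMJD3). On recovered reads edgeR called 1157 genes higher and 438 lower. For AP001626.1, with 3 vector reads over both libraries, counting error alone set an interval of 12.1 to 178.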
